A study of Mus musculus with 6 samples.

Results

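The proteasome genes of the mouse spleen were described in young animals exposed to lead (Pb) during development. The members were all probes whose only gene symbol, in the platform annotation, begins with Psm, a letter from a to g and a digit, on the part of the array that could be used. They were 53 of the 35587 probes and named 47 of the 17848 genes with a probe of their own there. Of these genes, 45 code for subunits, activators, inhibitors or assembly factors of the proteasome, and Psmc3ip and Psme3ip1 entered by name only, the first being a partner in meiotic strand pairing and the second a binding partner of an activator. Total RNA of whole spleen had been hybridised in 1 colour (Cy5) to CodeLink arrays, and each array is labelled with a numbered female. The Pb group was 3 female BALB/c mice at 21 days of age that had been exposed to 0.1 mM Pb since gestation day 8. The control group was 3 female BALB/c mice of the same age. The labels do not give the route of exposure. Because the readings of Pb replicate 3 did not track those of the controls (r of 0.045 to 0.051 over all probes), 5 arrays were used, Pb replicates 1 and 2 against control replicates 1 to 3.

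The proteasome degrades proteins tagged with ubiquitin. Its core (20S) is a barrel of alpha and beta rings, in which the beta subunits Psmb5, Psmb6 and Psmb7 cut peptide bonds, and a regulatory particle (19S) made of ATPases (Psmc) and other subunits (Psmd) recognises, unfolds and feeds in the substrates. In lymphoid tissue, and elsewhere under interferon gamma, Psmb8, Psmb9 and Psmb10 take the places of Psmb5, Psmb6 and Psmb7 to form the immunoproteasome. The immunoproteasome and the activator PA28, a ring of Psme1 and Psme2, favour peptides that fit MHC class I, the molecules that show peptides to T cells.

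The array readings set limits on every value that follows. Across the 47 genes (brightest probe of each), the log2 levels as deposited in Pb replicate 3 had r = -0.15 with the control mean, against 0.96 for Pb replicate 1 and 0.72 for Pb replicate 2. These points share their probes and array rows. The level of Pb replicate 2 drifted along the rows of the array, from a median of -2.51 against the control mean in rows 1 to 20 to 2.37 in rows 261 to 280. The smooth part of each array's deviation was therefore removed, and unless stated otherwise all values are log2 intensities after that correction, on which the array median is near 0. In the last rows of the array the controls did not follow each other (r of 0.038 to 0.175), and these rows were left out. Psmd2, the large scaffold of the regulatory particle, has its only probe there and was not analysed here. The only probe for Psmb10 also names another gene, so that immune catalytic subunit was not analysed either.

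**Figure D1:**
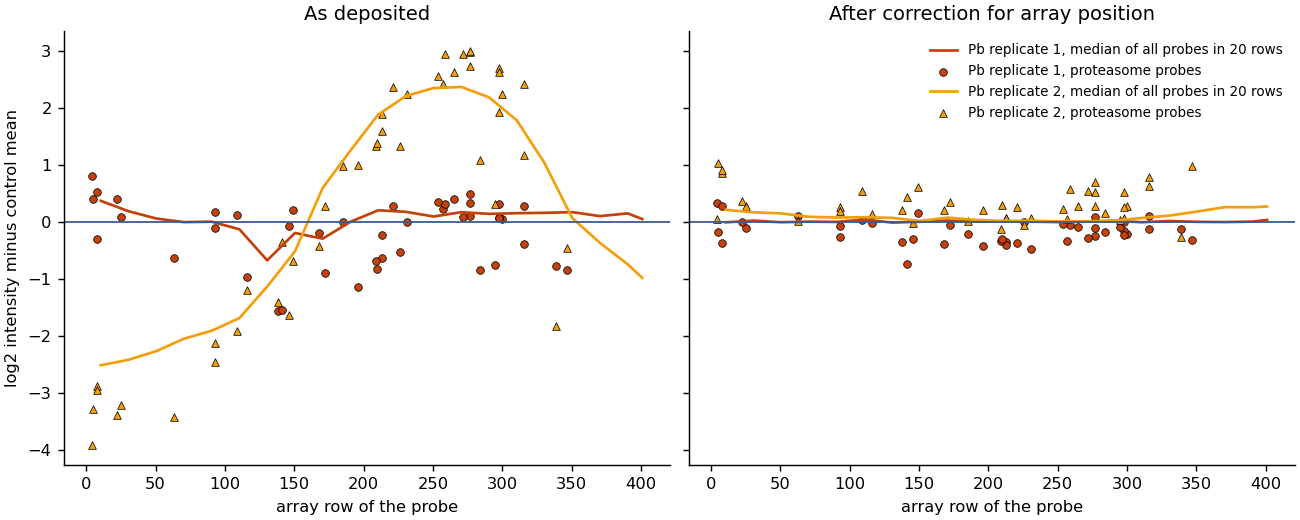
Deviation of Pb replicates 1 and 2 from the control mean (log2 intensity, vertical axis) against the array row of the probe (horizontal axis), as deposited (left) and after correction (right). Lines are medians of all probes in bands of 20 rows and points are the tested proteasome genes. As deposited, Pb replicate 2 drifts from a median of -2.51 in the first rows to 2.37 in rows 261 to 280, and after correction 40 of its 44 proteasome points lie above 0.

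The immune catalytic genes and their constitutive partners are set side by side below, and the bases before their starts are shown first for that reason. Psmb8 and Psmb9 lie in the MHC region of chromosome 17, where the RefSeq gene order is Psmb9, Tap1, Psmb8, Tap2, and Psmb5 and Psmb6 lie on chromosomes 14 and 11. The stretches are the 250 bases before the RefSeq start (GRCm38.p6), read 5′ to 3′ on the strand of the gene: Psmb8 at chr17:34197945-34198194 (plus strand), Psmb5 at chr14:54617996-54618245 (minus), Psmb9 at chr17:34187331-34187580 (minus) and Psmb6 at chr11:70525107-70525356 (plus). Capitals mark letters that match, on either strand, CCAAT, the interferon regulatory factor pattern (GAAA, any 2 bases, GAAA), the interferon gamma activated pattern TTCNNNGAA, or TGANNNNGC, the antioxidant element pattern bound by the Nfe2l1 family.
Psmb8: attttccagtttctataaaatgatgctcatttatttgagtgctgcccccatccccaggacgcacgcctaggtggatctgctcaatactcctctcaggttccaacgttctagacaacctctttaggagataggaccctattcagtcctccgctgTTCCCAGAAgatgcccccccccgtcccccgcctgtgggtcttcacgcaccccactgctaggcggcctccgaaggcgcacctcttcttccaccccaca
Psmb5: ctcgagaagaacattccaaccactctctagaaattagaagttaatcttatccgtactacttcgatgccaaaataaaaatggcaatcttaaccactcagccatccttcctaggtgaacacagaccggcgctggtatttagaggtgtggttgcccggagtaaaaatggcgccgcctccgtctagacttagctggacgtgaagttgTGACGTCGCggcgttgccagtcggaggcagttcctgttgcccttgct
Psmb9: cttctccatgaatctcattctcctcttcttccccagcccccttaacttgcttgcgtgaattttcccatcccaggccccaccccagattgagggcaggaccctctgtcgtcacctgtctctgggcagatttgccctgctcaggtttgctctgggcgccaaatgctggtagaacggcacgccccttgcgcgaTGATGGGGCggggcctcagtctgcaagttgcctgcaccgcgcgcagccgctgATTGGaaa
Psmb6: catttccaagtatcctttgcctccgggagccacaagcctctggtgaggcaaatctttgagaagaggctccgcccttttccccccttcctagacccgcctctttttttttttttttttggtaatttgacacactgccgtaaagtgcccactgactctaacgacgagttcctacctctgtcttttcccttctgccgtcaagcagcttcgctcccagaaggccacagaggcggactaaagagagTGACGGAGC
The capitals in Psmb8 are the interferon gamma activated pattern, at base -97 counted from the start. Those in Psmb5 and Psmb6 are the antioxidant pattern, at bases -47 and -9. Psmb9 holds the antioxidant pattern at base -60 and CCAAT, on the other strand, at base -8. The printed stretches end at the start. Past it, Psmb8 and Psmb5 also match the antioxidant pattern, at offsets of 23 and 41 from the start.

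RefSeq windows (250 bases before to 50 after a start) were at hand for 39 of the 47 genes, 43 windows in all. TGANNNNGC was found in 26 of the 43 windows (60.5%), against 41.3% of the 32851 windows of all genes. CCAAT was found in 16 (37.2%), against 37.4% of all windows. The interferon regulatory factor pattern was found in 5 (11.6%), against 3.44%, and TTCNNNGAA in 2 (4.65%), against 8.3%. The 5 windows with the interferon regulatory factor pattern belonged to Psme1, Psmb3, Psmd4, Psmd9 and Psmg4, and in Psmg4 the match overlaps one to TGANNNNGC. These are matches of letters only. The TGANNNNGC count is of windows, not of genes or sites. In it, overlapping windows of Psme2 share the same match, Psma6 enters by separate windows, and Psmc3ip and Psme3ip1 are included.

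No proteasome gene passed the test for a difference between Pb and control spleens. Of the 53 probes, 48 passed the filter on low values (a mean at or above the 30th percentile of all probes), and 0 of these 48 passed an adjusted p of 0.05 in limma, where 0.0613% of the 24464 probes tested did. At an unadjusted p under 0.05 there were 3 of 48, where 7.2% of all probes tested lay under that value. Of these, 2 were higher in Pb (3.89% of all probes) and 1 was lower (3.32%). In 3 of the 48 probes both Pb values exceeded every control value, against 14% of all probes, and in 3 both were under every control value, against 12.7%. Both member shares were lower than those over all probes. The smallest adjusted p of a member probe was 0.622 in limma. Without Pb replicate 1 the fit took the spread of the lone Pb replicate 2 to be that of the 3 controls. It called 3 of 48 member probes (Psmg1, Psmc3ip and the dimmer probe of Psmb4) and 11.5% of all probes tested, or 2805, so these calls describe that array. The p-values measure only the spread between samples labelled as separate females. In whole spleen, fewer cells of a type and less RNA per cell cannot be told apart.

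The intervals describe the spread between arrays after the position correction and leave out the uncertainty of that correction. Without the correction Psmc3 differed by 1.74 and Psmb9 by -1.18. These lie outside their corrected intervals (-0.17 to 0.96 and 0.01 to 1.13), while Psmc6, at 0.39, stayed inside its own. The intervals therefore do not bound how large a difference could have been missed. For 44 genes the brightest probe was tested. Of these, 43 had an absolute log2 difference under 0.5, against 85.5% of the 13827 genes tested, and 38 had a 95% interval inside a factor of 2 in either direction, against 73.7%. The other 6 were Psmb9, Psmc6, Psmg1, Psme3, Psmc3ip and Psmd12. The median log2 difference was 0.06, with 25 genes higher and 19 lower in Pb. Over all genes tested the median was 0.03 and 54.6% were higher. Leaving out Pb replicate 1 gave a median of 0.26, leaving out Pb replicate 2 gave -0.17 and leaving out control replicate 1 gave -0.01.

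**Figure D2:**
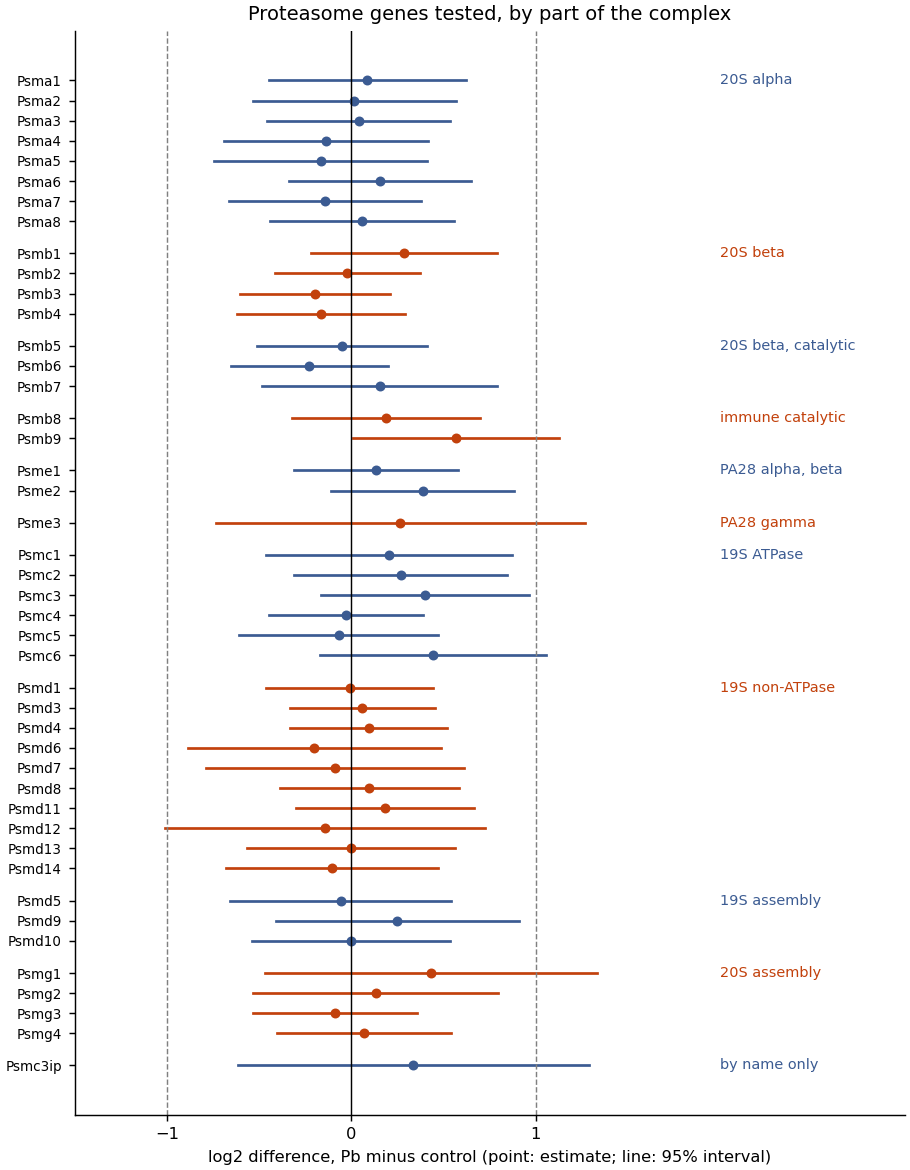
Log2 difference, Pb minus control, of the 44 proteasome genes tested (points) with the 95% interval from limma (lines), in 11 groups by part of the complex. Dashed lines mark a factor of 2 in either direction. The points lie between -0.23 (Psmb6) and 0.57 (Psmb9).

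Among the genes of the immunoproteasome, Psmb9 had the highest difference of the 44 genes in these corrected values, a rank that some other settings did not keep. Psmb9, which replaces the caspase-like subunit Psmb6, was at 3.76 and 4.32 in Pb spleens, against 3.62, 3.46 and 3.34 in control spleens. Both Pb arrays were above all controls, Pb replicate 1 by a small margin. The log2 difference was 0.57 (SE 0.23, interval 0.01 to 1.13, adjusted p = 0.622 in limma). It was -1.18 without the position correction and 0.35 with a pseudocount, where Psmc3 had 0.45. Psmb8, which replaces the chymotrypsin-like Psmb5, was at 5.21 and 4.93 in Pb spleens, against 4.64, 5.06 and 4.95 in control spleens. The groups overlapped, and the difference was 0.19 (SE 0.21, interval -0.32 to 0.70), or -1.55 without the correction.

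Both subunits of the PA28 ring had positive differences that did not pass the test. Psme2 was at 3.69 and 4.13 in Pb spleens, against 3.45, 3.63 and 3.49 in control spleens, with no overlap and a difference of 0.39 (SE 0.20, interval -0.11 to 0.88, adjusted p = 0.622 in limma). Without the position correction Psme2 differed by -0.24 and Psme1 by 1.47. Psme1 was at 5.85 and 6.10 in Pb spleens, against 5.70, 5.90 and 5.94 in control spleens. Its groups overlapped, with a difference of 0.13 (SE 0.18). Its dimmer probe was at 0.88 and 0.89 in Pb spleens, against 0.91, 0.78 and 1.18 in control spleens, a difference of -0.07 (SE 0.19). The median over these 4 genes was 0.29, against 0.03 over the other 40 tested members, and no test was made between them. Without the correction the order turned round, with medians of -0.71 and 0.30.

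The constitutive catalytic subunits lay close to the controls. Psmb5 was at 4.67 and 4.90 in Pb spleens, against 4.65, 4.97 and 4.87 in control spleens, a difference of -0.05 (SE 0.19). Psmb6 was at 5.53 and 5.74 in Pb spleens, against 5.75, 5.95 and 5.88 in control spleens. Both Pb arrays were below all controls, with the lowest difference of the 44 genes, -0.23 (SE 0.17, interval -0.65 to 0.20, adjusted p = 0.671 in limma). Without the correction its difference was 0.32. Psmb7, the trypsin-like subunit, was at 4.13 and 4.88 in Pb spleens, against 4.21, 4.43 and 4.43 in control spleens, so the Pb arrays lay on either side of the controls.

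**Figure D3:**
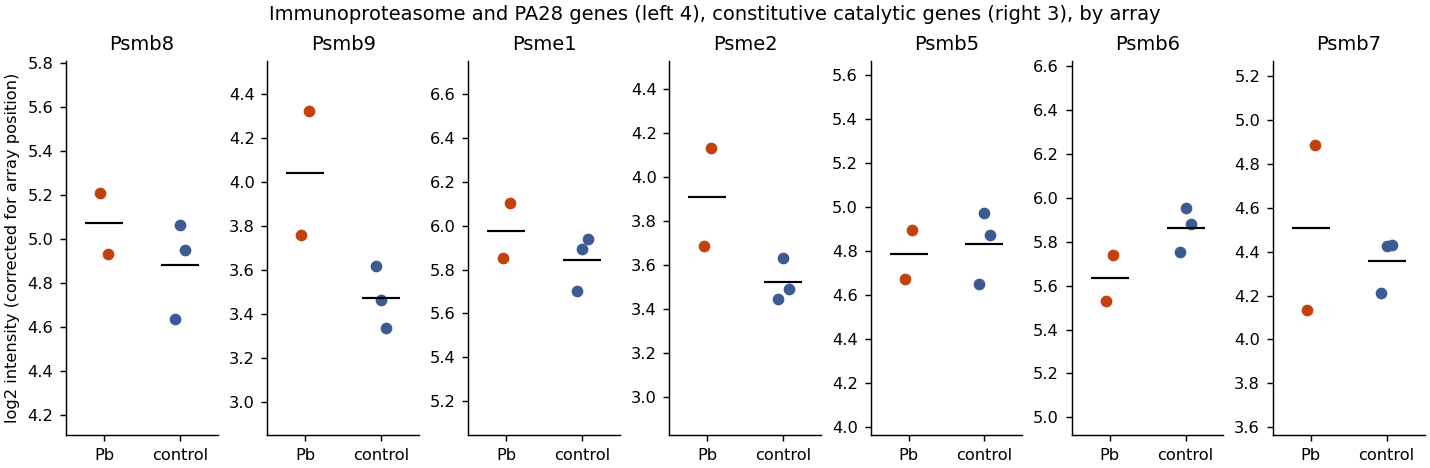
Log2 intensity (vertical axis, each panel spanning the same range) of Psmb8, Psmb9, Psme1, Psme2, Psmb5, Psmb6 and Psmb7 in the 2 Pb arrays (left) and the 3 control arrays (right). Points are arrays and bars are group means. In Psmb9 and Psme2 both Pb points lie above the controls, and in Psmb6 both lie below.

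The immune subunit was then set against its partner within each array, where the ratio between 2 probes can show unequal change but no level. The log2 ratio of Psmb9 to Psmb6 was -1.77 and -1.41 in Pb spleens, against -2.13, -2.49 and -2.54 in control spleens. Both Pb arrays were above all controls, and the ratio was higher by 0.79 (exact permutation test over arrays, two-sided, p = 0.1, the smallest that the 10 splits of 5 arrays allow). The ratio of Psmb8 to Psmb5 was 0.54 and 0.04 in Pb spleens, against -0.01, 0.09 and 0.08 in control spleens. It was higher by 0.24 (exact permutation p = 0.3), and only in Pb replicate 1. These changes turn over without the correction, to -1.5 for Psmb9 and Psmb6 and -2.55 for Psmb8 and Psmb5.

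The place of the probes on the array bears on that. Psmb8 and Psmb9 lie in array rows 4 and 8, near the edge, where Pb replicate 2 was dimmest. In the values as deposited, probes within 5 rows of Psmb9 had a median of -3.26 in Pb replicate 2 and 0.39 in Pb replicate 1 against the control mean. Psmb9 itself was at an intensity of 15.3 and 1.46 in the Pb arrays, against 13.3, 12.2 and 7.56 in the controls. After correction the 594 probes around it had a median Pb minus control difference of 0.12 (quartiles -0.24 and 0.40). For Psme2, in row 149, the neighbours had a median of -0.01 (quartiles -0.19 and 0.20).

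The alpha ring gates the core. Its 8 genes lay between -0.17 (Psma5) and 0.16 (Psma6), with 5 higher and 3 lower and a median of 0.03. Psma5 was at 5.50 and 5.98 in Pb spleens, against 5.72, 5.82 and 6.17 in control spleens. The groups overlapped in all 8 genes. Psma8, the alpha subunit known from testis, differed by 0.06.

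Among the structural beta subunits, Psmb3 was at 5.43 and 5.29 in Pb spleens, against 5.54, 5.64 and 5.48 in control spleens. Both Pb arrays were below all controls, by a small margin, and the difference was -0.20 (SE 0.17, adjusted p = 0.700 in limma). Psmb1 differed by 0.29 and Psmb2 by -0.02. Psmb4 has 2 probes of 1 transcript accession that did not move alike. The brighter was at 5.18 and 5.45 in Pb spleens, against 5.34, 5.49 and 5.60 in control spleens, a difference of -0.16 (SE 0.19). The dimmer was at 3.03 and 3.87 in Pb spleens, against 2.33, 2.48 and 2.28 in control spleens. Its difference of 1.08 (SE 0.28, unadjusted p = 0.0078, adjusted p = 0.622 in limma) was the highest of the 48 member probes tested. As deposited, that dimmer probe differed by 0.08. Psmb11, the beta subunit of the thymic cortex, was under the filter, with groups that overlapped.

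In the regulatory particle, the 6 ATPases that unfold substrates had a median difference of 0.24, with 4 higher and 2 lower. Psmc6 was at 3.08 and 3.77 in Pb spleens, against 3.10, 2.83 and 3.01 in control spleens, a difference of 0.44 (SE 0.25, interval -0.17 to 1.06). Psmc3 was at 4.20 and 4.82 in Pb spleens, against 4.10, 4.21 and 4.03 in control spleens, a difference of 0.40 (SE 0.23, interval -0.17 to 0.96). In each gene Pb replicate 2 was well above the controls and Pb replicate 1 lay within their range. Psmc4 and Psmc5 differed by -0.03 and -0.07.

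The 10 tested subunits without ATPase activity had a median difference of 0.00, with 4 higher and 6 lower. They ran from -0.20 for Psmd6 to 0.18 for the brightest probe of Psmd11. Psmd6 was at 4.12 and 4.67 in Pb spleens, against 4.26, 4.95 and 4.56 in control spleens. Psmd4, a ubiquitin receptor, differed by 0.09, and Psmd14, which strips ubiquitin from the substrate, by -0.10. The groups overlapped in all 10 genes.

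Psmd11 and Psmd12, of the lid of that particle, have several probes whose signs differed. The brightest probe of Psmd11 was at 3.00 and 3.36 in Pb spleens, against 2.84, 3.08 and 3.08 in control spleens. A dim one, made to an expressed sequence tag, was at -1.75 and -1.68 in Pb spleens, against -1.34, -0.97 and -0.73 in control spleens, a difference of -0.69 (SE 0.23, unadjusted p = 0.0218, adjusted p = 0.622 in limma). Another probe lay under the filter, with deposited intensities of 0.103 and -0.0196 in the Pb arrays, against 0.155, 0.155 and 0.103 in the controls. The brighter probe of Psmd12 was at 4.49 and 5.66 in Pb spleens, against 5.05, 5.31 and 5.29 in control spleens, a difference of -0.15 (SE 0.35), with the Pb arrays on either side of the controls. The dimmer was at 1.71 and 1.75 in Pb spleens, against 1.55, 1.79 and 1.45 in control spleens, a difference of 0.14 (SE 0.18). None of these probes passed.

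The assembly factors were measured by bright enough probes for all 7 genes. Psmg1, a chaperone of the alpha ring, was at 2.35 and 3.56 in Pb spleens, against 2.35, 2.74 and 2.47 in control spleens. Its difference of 0.43 (SE 0.37, interval -0.47 to 1.33) reflects Pb replicate 2 alone, since Pb replicate 1 lay at the lowest control. Psmg2, Psmg3 and Psmg4 differed by 0.13, -0.09 and 0.07. Psmd9, Psmd10 and Psmd5, chaperones of the ATPase ring, differed by 0.25, 0.00 and -0.06. Psme3, the nuclear PA28 gamma, was at 3.35 and 4.62 in Pb spleens, against 4.03, 3.38 and 3.74 in control spleens.

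The probe for the inhibitor Psmf1, made to an expressed sequence tag, lay under the filter, at -5.40 and -5.44 in Pb spleens, against -3.47, -3.40 and -2.48 in control spleens. As deposited, these were intensities of 0.0304 and 0.101 in the Pb arrays, against 0.086, 0.0794 and 0.185 in the controls, so Pb replicate 2 was not below the controls before correction. Of the 5 member probes under the filter, both Pb arrays were below all controls in 2 and above them in 0, where 10% and 10.6% of all probes under the filter were. Psmc3ip, tested but no part of the proteasome, was at 0.35 and 1.66 in Pb spleens, against 0.84, 0.50 and 0.67 in control spleens.

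The Pb arrays differed from each other in the proteasome genes. Pb replicate 1 was part of the mean used as reference for the correction, and Pb replicate 2 was not. Pb replicate 2 was above Pb replicate 1 in 40 of the 44 genes, by a median of 0.48, while over all genes tested it was above in 56.4%, by a median of 0.09. Pb replicate 1 was above the control mean in 9 of 44 genes (median -0.17) and Pb replicate 2 in 40 of 44 (median 0.26). Over all genes tested these shares were 48.7% and 57.7%. Among other genes with a control mean from 3 to 5, Pb replicate 2 was above Pb replicate 1 in 52.8% (median 0.03), and 20 of 21 proteasome genes at that level had it above (median 0.56). At control means from 5 to 7 it was above in 54.4% of other genes (median 0.05) and in 14 of 17 proteasome genes (median 0.35). As deposited, Pb replicate 1 was above the control mean in 23 of 44 genes and Pb replicate 2 in 26. The controls differed among themselves too: the median of the 44 genes in control replicate 1 was -0.17 against the other controls, and 0.07 and 0.06 in control replicates 2 and 3.

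**Figure D4:**
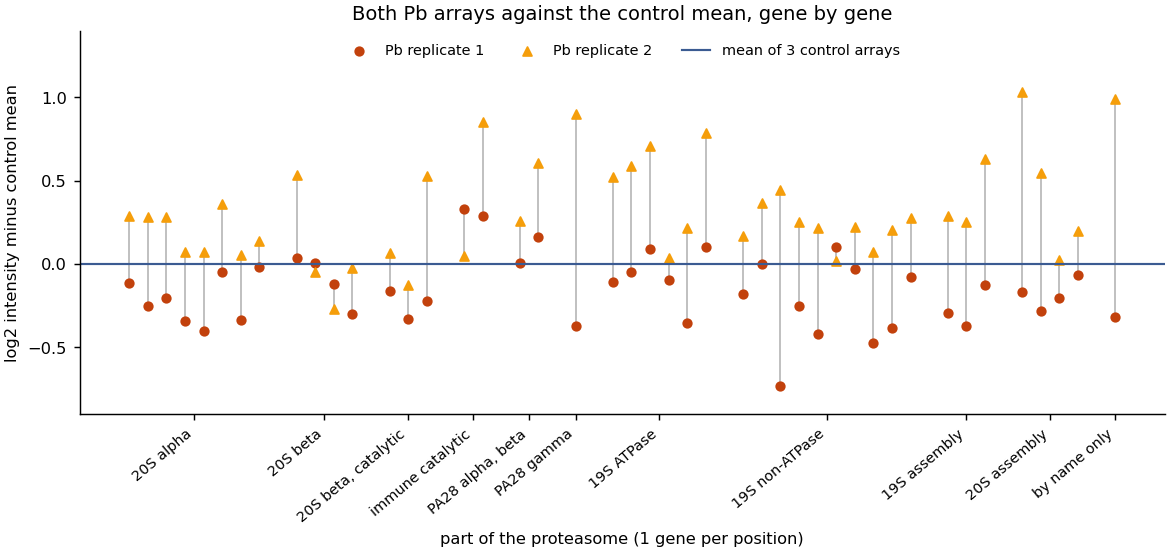
Deviation from the mean of the 3 controls (log2 intensity, vertical axis) in Pb replicate 1 (circles) and Pb replicate 2 (triangles), with a grey line joining the 2 arrays for each of the 44 genes, by part of the complex. Most triangles lie above the control mean and most circles below it, while for Psmb8, Psmb9, Psme1 and Psme2 both lie at or above it. Both also lie at or above it for Psmb1, Psmc3, Psmc6 and Psmd3. Each gene is shown by its brightest probe.

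As a set, the immune genes stood higher than most other members in Pb replicate 1. There all 4 of Psmb8, Psmb9, Psme1 and Psme2 were above the control mean, by 0.01 to 0.33 (median 0.22), and 5 of the other 40 were (median -0.19). Those 5 included Psmb1, Psmc3, Psmc6 and Psmd3, which were above it in Pb replicate 2 too. In Pb replicate 1 each of those named genes lay further above it than Psme1. These counts use the brightest probe of each gene. The dimmer tested probe of Psme1 was below the control mean in both Pb arrays (-0.08 and -0.07), as was that of Psmd11. Those of Psmb4 and Psmd12 were above the control mean in both. In Pb replicate 2 all 4 immune genes (median 0.43) and 36 of the other 40 (median 0.25) were above it. As deposited, all 4 and 19 of the other 40 were above it in Pb replicate 1, and 1 of the 4 and 25 of the other 40 in Pb replicate 2, so the split depends on the correction. It was seen after the values were known and was not tested.

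Some marker lists of cell types differed between the same arrays. Of 8 erythroid markers 6 were measured, with a median of -0.20 in Pb replicate 1 and 0.51 in Pb replicate 2 against the control mean. Their summed log2 levels were 30.6 and 34.6 in Pb spleens, against 31.0 to 33.0 in control spleens. Of 8 neutrophil markers 8 were measured, with medians of 0.80 and 0.03 in Pb replicates 1 and 2, and summed log2 levels of 47.6 and 40.6 in Pb spleens, against 39.0 to 43.7 in control spleens. The B cell markers (7 of 8) had summed log2 levels of 26.5 and 25.4 in Pb spleens, against 24.4 to 26.5 in control spleens, and the T cell markers (7 of 8) 26.5 and 25.2, against 24.4 to 26.5. The macrophage markers (7 of 8) had medians of -0.03 and -0.01 in Pb replicates 1 and 2, and summed log2 levels of 28.7 and 28.3 in Pb spleens, against 28.0 to 30.5 in control spleens. The plasma cell markers (5 of 5, of which 4 were tested) had medians of -0.03 and -0.30, and sums of 9.34 and 8.26 in Pb spleens, against 7.91 to 9.88 in control spleens. Those sums include Tnfrsf17, which lay under the filter, at -3.50 and -3.34 in Pb spleens, against -4.86, -4.67 and -2.98 in control spleens. The control range of the sums rests largely on that probe. Of the 4 tested, 2 were higher and 2 lower in Pb. Sdc1 was at 0.60 and 0.18 in Pb spleens, against 0.89, 0.83 and 0.92 in control spleens. Except for 1 plasma cell probe, none of the probes of these 6 lists had a deposited value at or under 0, and the part of cell makeup in the proteasome values was not tested.

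Markers of the exocrine pancreas separated the groups. Of 12 such genes 11 were measured, and all 11 were above the controls in both Pb arrays, as were 14% of all probes tested. Control means were above 0 for 3 of them, and some of the others passed the filter on low values through the Pb arrays alone, so no count of calls is given. Their summed log2 levels were 39.6 and 44.2 in Pb spleens, against -10.0 to -8.36 in control spleens. This list was chosen with earlier results of these data known. Its part in the proteasome values was not tested.

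Other genes of the pathway gave no call either. Of 13 measured factors that bind or assist the proteasome, 12 were tested and 0 passed, with 7 higher and 5 lower and a median of 0.02. Rad23b, a shuttle for ubiquitinated substrates, had the highest difference at 0.83 (SE 0.33, adjusted p = 0.622 in limma), and Zfand5 the lowest at -0.41 (SE 0.26). The Rad23b probe was dim, at -1.25 and -0.51 in Pb spleens, against -1.53, -1.43 and -2.17 in control spleens. Of 7 measured genes of ubiquitin activation and the p97 unfoldase, 0 passed, with 2 higher and 5 lower and a median of -0.12. They ran from -0.24 for Nploc4, a p97 cofactor, to 0.36 for Ubxn1.

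Of 6 measured transcriptional regulators, 0 passed, with 4 higher and 2 lower and a median of 0.16. Nfe2l1, which drives proteasome genes when the proteasome is inhibited, was at 1.57 and 0.01 in Pb spleens, against 1.28, 1.67 and 1.67 in control spleens. Its difference was -0.75 (SE 0.46), and only Pb replicate 2 lay below the controls. Its relation to the proteasome values was not tested. Irf1, an interferon target that activates Psmb9 and Tap1, was at 3.95 and 3.98 in Pb spleens, against 3.52, 3.82 and 3.75 in control spleens. It lay above all controls with a difference of 0.27 (SE 0.18, adjusted p = 0.644 in limma).

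Of 11 measured genes of peptide supply to MHC class I, 0 passed, with 8 higher and 3 lower and a median of 0.09. Calr, a chaperone of class I loading, was highest at 0.41 (SE 0.16, adjusted p = 0.622 in limma), and the aminopeptidase Npepps lowest at -0.20 (SE 0.18). The peptide transporter genes beside Psmb8 and Psmb9, named here after their values were seen, did not move alike. Tap1 was at 2.14 and 2.16 in Pb spleens, against 1.78, 1.79 and 1.78 in control spleens, a difference of 0.37 (SE 0.16, adjusted p = 0.622 in limma). Tap2 was at 4.21 and 4.11 in Pb spleens, against 4.26, 4.55 and 4.21 in control spleens, a difference of -0.18 (SE 0.18), so that both Pb arrays were just below all controls.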

How the data were processed

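The deposited table holds linear probe intensities, with array medians of 0.972 to 0.987 and 151 to 711 values at or under 0 per array. Per the labels, the arrays are CodeLink and the dye is Cy5. No source used here names the scanner software, background correction or normalisation. Before taking log2, a floor at percentile 1 of each array's positive values replaced the deposited intensities at or under 0. Each probe number gives its array row and column. A smooth surface was then fitted to how far each array departed from a mean over Pb replicate 1 and the controls, and subtracted, in 2 rounds (mgcv 1.9.3, tensor products of row with level and with column, bases of size 40, 6 and 8 in that order: row, level, column). Correlations of Pb replicate 2 with single controls were 0.917 to 0.918 after this step and 0.648 to 0.659 before. That gain is partly built in. Probes with a mean at or above the 30th percentile were tested two-sided by moderated linear models (limma 3.58.1, R 4.3.3) with Benjamini-Hochberg adjustment over 24464 probes. The steps were also run on simulated data with a smooth drift in Pb replicate 2. A smooth surface removes such a drift by design, so that run does not show how well the real drift was removed. After correction Pb replicate 2 kept medians against the control mean of 0.21 in rows 1 to 20 and 0.26 in rows 361 to 380. In rows 261 to 280 the median was 0.01. Genes with several probes are given by the brightest. Symbols come from the platform annotation and no symbol changed in RefSeq (GRCm38.p6). The members and lists were chosen with earlier results of these data known. Values by array are given for the immune genes and their partners, the 4 highest and 4 lowest members, probes under an unadjusted p of 0.05 and probes of 1 gene that differ in sign, with the highest and lowest gene of each pathway list. Other members are given by array where a sentence describes their part, and were picked after their values were seen. The number of arrays limits the precision. Alternatives covered the surface, filter, scaling, floor, weights, variance model, replicate number and each array.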

Additional observations from a re-analysis of the deposited data

How the results depend on the processing

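The 0 proteasome probes past an adjusted p of 0.05 stayed 0 in every alternative run except without Pb replicate 1, so that leaving out 1 array gave 0 to 3. Over all probes the 15 calls became 24 with a pseudocount in place of the floor, 7 with array weights, 0 without position correction, 0 without the filter on dim probes, 0 in the 6 arrays as deposited, and 2 to 2805 with 1 array left out, the highest without Pb replicate 1. The median difference of the proteasome genes, 0.059, was -1.09 in the 6 arrays as deposited, and -0.166 to 0.256 with 1 array left out. The setting of 6 arrays includes Pb replicate 3 and the last array rows and lacks the position correction. These changes were not separated. In the other alternatives the median moved by less than the spread between the controls (SD 0.138). The move was just under that spread without position correction, where the median was 0.196. The change in the ratio of Psmb9 to Psmb6, 0.795, was -1.5 without position correction, -1.869 in the 6 arrays and 0.616 to 0.974 with 1 array left out. That of Psmb8 to Psmb5, 0.238, was -2.548, -2.052 and -0.014 to 0.49 in the same settings, 0.085 with a pseudocount and 0.383 with a coarser surface. Fewer arrays allow no small permutation p. Replicate numbers are shared between groups but the labels do not say what they mean, and the correlation of their deviations from the group means was 0.06 for number 1 and 0.01 for number 2. With the replicate block, 7 of all probes and 0 proteasome probes passed, and the proteasome median was 0.089. Of 359 comparisons of 20 named probes, 322 kept their sign without a call, 35 changed sign without a call and 2 gained one, both without Pb replicate 1. The cause of a change between settings was not tested. The dim probes, such as those of Psmf1 and the dimmer ones of Psmd11, carry no detection call.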
